A study of Mus musculus with 4 samples.

Results

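Metalloproteinases, their inhibitors and the genes of the plasminogen activator system were examined in mouse hearts that lack *Jun* in striated muscle. The list held 38 genes, and its members were all probe sets whose only gene symbol in the platform annotation is on the list. This gave 77 probe sets of 37 genes, out of 45037 probe sets and 18193 named genes tested in all. A probe set is a group of short probes made to read the same transcript. There was 1 probe set for 15 genes and several for the other 22, with at most 6 for a gene. *Serpine2*, an inhibitor of plasminogen activators, had no probe set under its name and was not analysed here.

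Total RNA came from hearts of 2 Jun delta mu and 2 Junf/f mice, all 10 weeks old, with a mixed 129/Ola-C57BL/6 background. Every heart had an Affymetrix mouse expression array of its own. All 4 mice carry floxed *Jun* alleles. Jun delta mu mice also carry Cre recombinase under the muscle creatine kinase promoter, which acts in striated muscle, whereas Junf/f mice carry no Cre. Fibroblasts, vessel cells and blood cells of a Jun delta mu heart therefore keep the gene, and in whole hearts fewer cells of a type and less RNA per cell cannot be told apart. The notes on growth that accompany the samples speak of plated ventricular cells, while titles, source and methods give whole hearts. Markers of heart muscle were bright on every array by brightest probe set, between 14.30 for *Tnni3* and 14.84 for *Myl2* on the log2 scale, apart from the natriuretic peptide gene *Nppa* at 11.88 to 12.79.

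Matrix metalloproteinases (MMPs) are zinc-dependent enzymes that are made as inactive precursors and, once activated, cut collagens and other proteins of the extracellular matrix. Tissue inhibitors of metalloproteinases (TIMPs) block their active site, and plasmin, released from plasminogen by the plasminogen activators, can activate several of the precursors. The ADAMTS enzymes are secreted relatives that cut proteoglycans and procollagens, and the ADAM enzymes are mostly bound to the cell membrane and shed other surface proteins. In the heart these enzymes take part in the turnover of the matrix between muscle cells, and much of this RNA is known from fibroblasts and inflammatory cells. The c-*Jun* protein is a subunit of AP-1, a dimeric transcription factor, and the collagenase and stromelysin genes are textbook examples of genes with an AP-1 element close to the start.

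*Jun* itself read 7.02 and 7.14 in Jun delta mu hearts against 8.30 and 9.0 in Junf/f hearts with its brighter probe set, a difference of -1.57 (SE 0.23). Its dimmer probe set was at 6.58 and 6.86 in Jun delta mu hearts and at 7.78 and 8.15 in Junf/f hearts, a difference of -1.24 (SE 0.17). Every Jun delta mu array was thus below every Junf/f array for the targeted gene. Even so, neither probe set passed adjustment over all probe sets (limma, adjusted p = 0.896 for each), so this adjusted p is no sign that a gene is unchanged. Median signals lay between 5.45 and 5.47 and correlations between arrays between 0.994 and 0.997. On Junf/f replicate 1, 104 probe sets deviated over 2-fold from the average of the remaining arrays, and on the remaining arrays 24 to 33 did. Markers of atrial muscle (*Sln*, *Myl7* and *Myl4*) summed on the linear scale to 115 and 1349 in Jun delta mu hearts and to 95.4 and 124 in Junf/f hearts, so Jun delta mu replicate 2 was high in them.

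Promoter sequences are shown for 6 of the 7 members whose window holds an AP-1 element, since c-*Jun* is the protein removed. The windows are those of RefSeq on GRCm38.p6, from 250 bases before to 50 bases after the annotated start. Of the 38 genes 24 had one, with 29 windows in all. The other 14 had no window and were not searched, so nothing is known here of AP-1 letters in them. These are *Mmp2*, *Mmp9*, *Mmp16*, *Mmp17*, *Mmp19*, *Adamts4*, *Adamts5*, *Adamts7*, *Adamts8*, *Adamts10*, *Adamts15*, *Adam12*, *Plat* and *Plau*. The letters TGACTCA and TGAGTCA, which are each other's reverse complement, were searched, and 7 members held them in 1 window each. The same letters stood in 1709 of all 32851 windows (5.20%). The related CRE letters TGACGTCA, read the same on both strands, were in 0 member windows and in 1.79% of all windows. Each line gives 40 bases before the AP-1 letters, the letters in capitals and the sequence up to base 20 after the start.
Mmp13, chr9:7272439-7272533, plus strand: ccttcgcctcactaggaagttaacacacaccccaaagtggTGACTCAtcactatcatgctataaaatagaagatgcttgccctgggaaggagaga
Mmp12, chr9:7347290-7347393, plus strand: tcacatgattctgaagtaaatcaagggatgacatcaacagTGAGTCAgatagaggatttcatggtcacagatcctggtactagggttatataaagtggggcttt
Mmp3, chr9:7445736-7445841, plus strand: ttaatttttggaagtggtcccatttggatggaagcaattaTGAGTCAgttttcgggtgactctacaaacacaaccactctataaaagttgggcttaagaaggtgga
Mmp10, chr9:7502239-7502361, plus strand: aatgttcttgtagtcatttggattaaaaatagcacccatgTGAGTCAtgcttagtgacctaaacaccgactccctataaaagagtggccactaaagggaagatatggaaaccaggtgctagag
Mmp7, chr9:7691987-7692109, plus strand: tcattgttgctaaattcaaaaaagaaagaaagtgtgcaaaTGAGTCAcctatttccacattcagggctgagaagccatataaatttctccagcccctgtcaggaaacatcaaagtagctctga
Plaur, chr7:24462374-24462502, plus strand: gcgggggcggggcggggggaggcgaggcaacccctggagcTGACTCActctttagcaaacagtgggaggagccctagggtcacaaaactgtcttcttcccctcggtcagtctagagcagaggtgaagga
The *Mmp3*, *Mmp13* and *Plaur* stretches fall under the rule for named genes, and the stretches of *Mmp7*, *Mmp10* and *Mmp12* were added after the search because these genes neighbour *Mmp3* and *Mmp13*. The *Mmp12* window belongs to an alternative start of that gene.

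These metalloproteinase genes lie in a run of 6 on chromosome 9, in the order *Mmp13*, *Mmp12*, *Mmp3*, *Mmp10*, *Mmp8* and *Mmp7*. All but *Mmp8*, whose window held no AP-1 letters, carried the element close to the start. The capitals began at base -35 in *Mmp13*, -44 in *Mmp12*, -46 in *Mmp3* and -63 in *Mmp10* and *Mmp7*, counted from the first transcribed base as 0. In all 5 windows the letters TATAAA followed on the same strand, which were found in 8.32% of all windows. In *Plaur*, the urokinase receptor gene on chromosome 7, the element began at base -69 with no TATAAA in the window. *Adam19*, on chromosome 11, had it at base -131 of an alternative start, and its stretch is not printed. A match of letters is a description and does not show that AP-1 binds there in the heart.

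**Figure D1:**
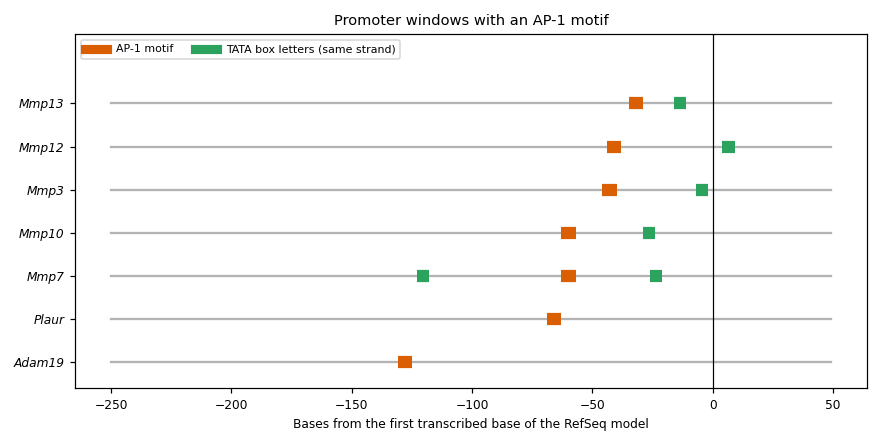
Positions of the AP-1 letters (orange) and of TATAAA on the same strand (green) in the promoter windows of the 7 members with an AP-1 match; the x axis gives bases from the first transcribed base of the RefSeq model and the grey line is the window. The AP-1 letters begin between base -131 and base -35, and in the 5 metalloproteinase genes they lie before a TATAAA.

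The inhibitors and most of the other genes were above the median signal in these hearts, while the collagenases and urokinase were below it. Signals of different probe sets do not compare amounts of RNA, so each gene was only placed above or below the median of all probe sets, by its brightest probe set. Of the 37 genes, 27 (73.0%) were above the median on all 4 arrays, against 62.2% of all genes. Below it on all arrays were 7 genes, namely *Mmp8*, *Mmp12*, *Mmp13*, *Mmp16*, *Mmp19*, *Adam12* and *Plau*. *Mmp10*, *Mmp17* and *Adamts4* were on both sides. With the percentile of the signal set at 40 in place of the median, 31 genes were above on all arrays, and with it set at 60, 21 genes were.

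All 5 inhibitors were above the median, with *Timp2* the highest member at a mean of 10.14. Among the ADAMTS genes 8 of 9 were above, and among the ADAM genes 4 of 5. Both gelatinases, *Mmp2* and *Mmp9*, were above and both collagenases, *Mmp8* and *Mmp13*, were below. Of the 5 stromelysin, matrilysin and elastase genes, *Mmp3*, *Mmp7* and *Mmp11* were above. Of the 4 membrane-type enzymes, *Mmp14* and *Mmp24* were above. *Mmp13* had the lowest mean, 3.33.

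**Figure D2:**
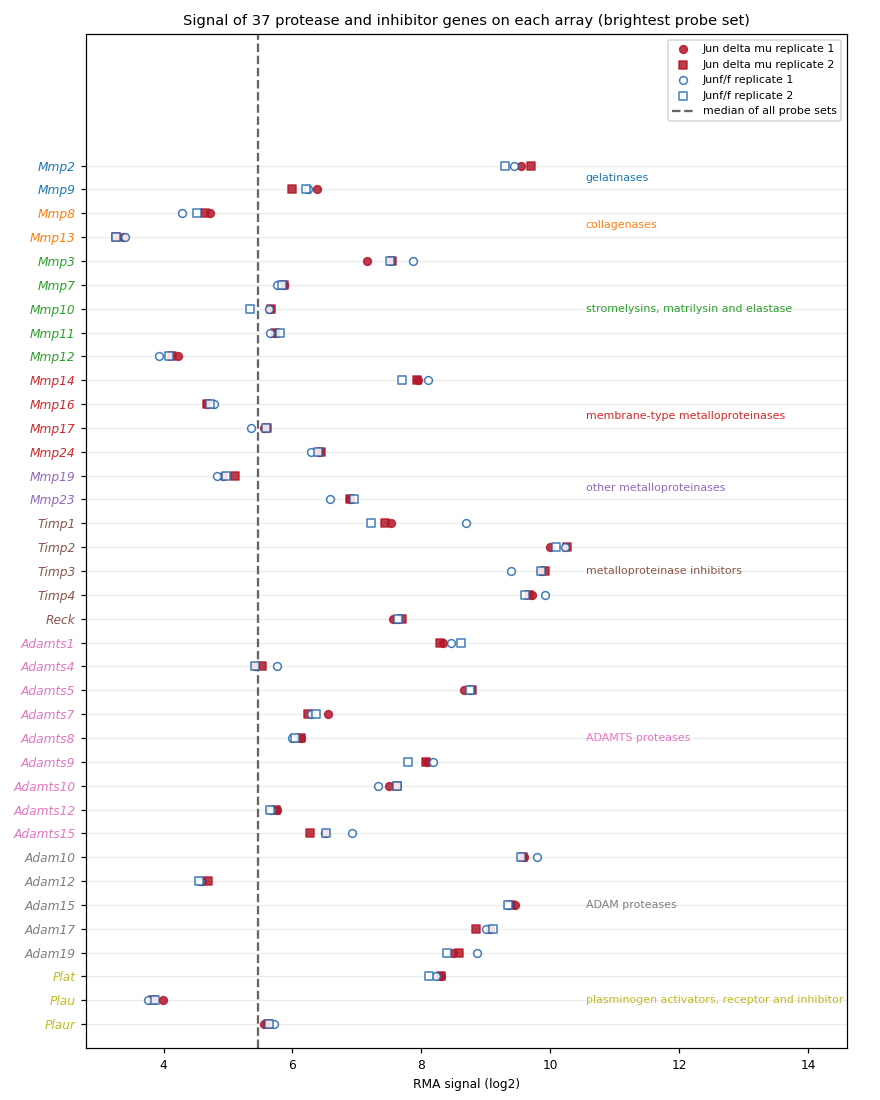
RMA signal on the log2 scale (x axis) of the brightest probe set of each of the 37 genes on each array, with filled red symbols for Jun delta mu and open blue symbols for Junf/f hearts and the dashed line at the median of all probe sets. Gene names are coloured by family; 27 genes lie to the right of the line on all arrays, and the symbols of most genes lie close together except for *Timp1*, whose Junf/f replicate 1 stands apart.

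Between the genotypes, only a dim probe set of *Mmp19* differed past the study's cut-off, and no protease or inhibitor gene did so by its brightest probe set. This cut-off, a change above 1.3-fold together with an unadjusted p below 0.05, was applied to a limma fit of each probe set, and differences are Jun delta mu minus Junf/f. Of the 77 member probe sets 1 passed, as lower, against 1.53% of all probe sets. In all, 0.568% of probe sets passed as higher and 0.959% as lower. By the brightest probe set of each gene 0 of 37 genes passed, against 1.45% of all genes. An unadjusted p below 0.05 in limma was reached by 3 member probe sets (3.90%), against 5.16% of all. The methods' t-test gave 3 as well, but not all of them were the same probe sets, and its share over all probe sets was not worked out. After Benjamini-Hochberg adjustment over all probe sets 0 members were called by limma, as were 0.0% of all probe sets, and 0 by the methods' t-test. The limma adjusted p of the members ran from 0.896 to 1. These shares are near those of all probe sets and are no result about the members.

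The sizes of the differences were small. By brightest probe set they ran from -0.48 in *Timp1* to 0.28 in *Mmp8*, with a median of 0.07 against 0.01 over all genes. Above 0 were 20 genes and below 0 were 17 (52.2% of all genes were above 0). A change of at most 1.3-fold was measured for 36 of 37 genes, the exception being *Timp1*, and for 74 of 77 probe sets. The median absolute difference of member probe sets was 0.10, against 0.09 over all probe sets. The 95% interval from limma reached a median of 0.28, or 1.21-fold, to either side, and for 33 of 37 genes it lay within 1.5-fold either way. The intervals of the other 4 genes reached beyond 1.5-fold.

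Jun delta mu arrays were both above both Junf/f arrays for 19 probe sets (24.7%), against 17.3% of all probe sets, and both below for 8 (10.4%), against 16.7% of all. For the other 50 the genotypes overlapped. By brightest probe set the genotypes were separate for 11 genes that were higher, 4 that were lower, and overlapped for 22. The matching share over all genes was not worked out, so these gene counts are no result about the members. Junf/f replicate 1 was the array farthest from the median of the 4 arrays for 39 member probe sets (50.6%), against 39.5% of all probe sets.

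**Figure D3:**
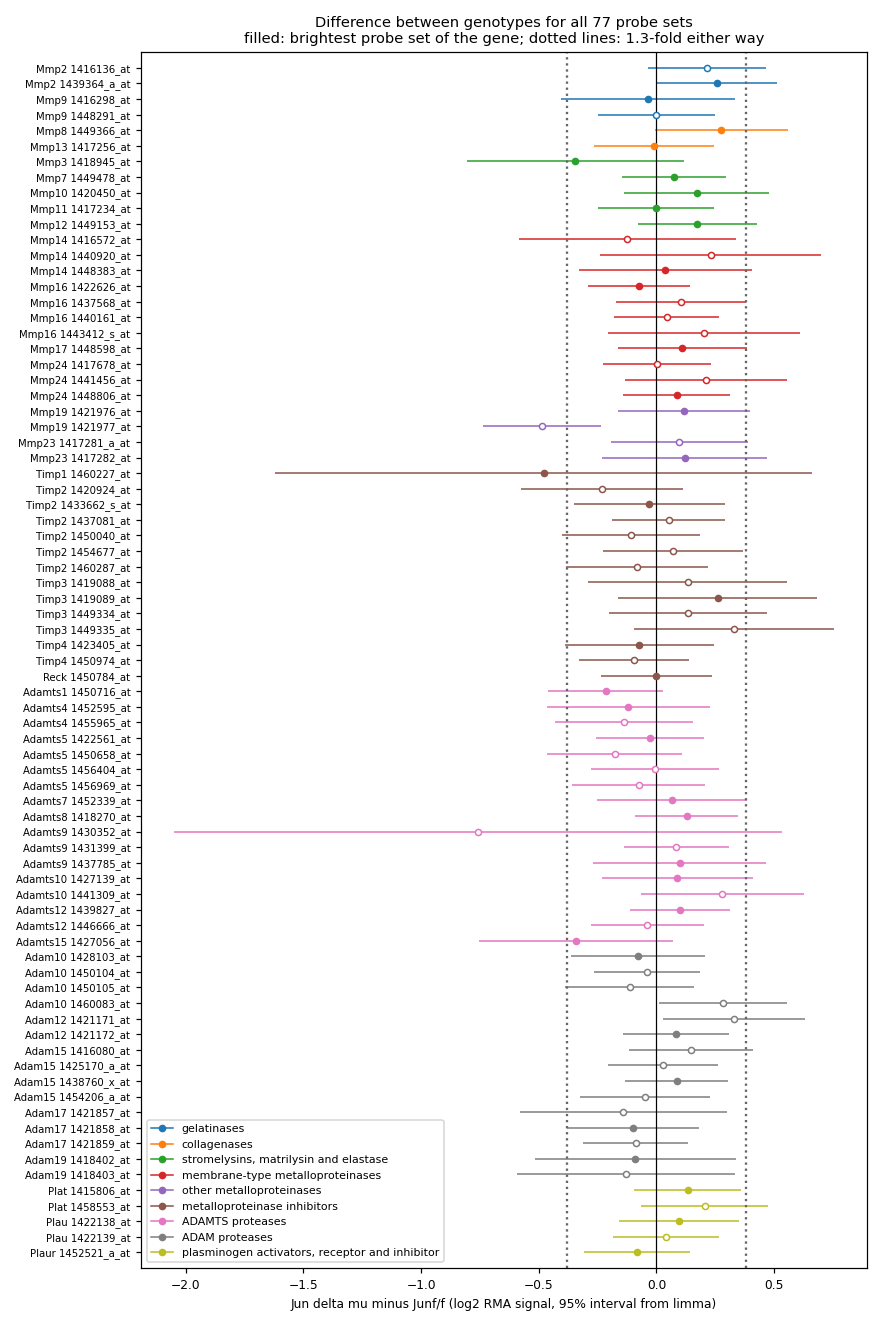
Difference in log2 RMA signal, Jun delta mu minus Junf/f, for each of the 77 probe sets (points) with its 95% interval from limma (bars), coloured by family, the brightest probe set of a gene filled and the dotted lines at 1.3-fold either way. The interval of 1 probe set of *Mmp19* lies wholly below 0, those of *Adam10* 1460083_at and *Adam12* 1421171_at wholly above, and *Timp1* and *Adamts9* 1430352_at have the widest.

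The gelatinase *Mmp2*, which cuts denatured collagen and basement membrane collagen, was slightly higher in each Jun delta mu heart. Its brightest probe set read 9.55 and 9.69 in Jun delta mu hearts against 9.43 and 9.30 in Junf/f hearts, a difference of 0.26 (SE 0.10). The other probe set was at 9.54 and 9.61 in Jun delta mu hearts and at 9.44 and 9.28 in Junf/f hearts, a difference of 0.21 (SE 0.10). With both probe sets the genotypes did not overlap, but the change was under 1.3-fold (limma, adjusted p = 0.896). The difference of the brightest probe set ran from 0.19 to 0.33 when any array was left out. Of 8 fibroblast markers 6 were above 0 and 1, *Pi16*, passed as higher at 0.45, with summed linear signals of 17327 and 18963 in Jun delta mu hearts and of 18033 and 16576 in Junf/f hearts. Their part in the *Mmp2* value was not tested.

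*Mmp9*, the other gelatinase and a product of neutrophils and macrophages, had a difference of -0.04 (SE 0.15). Its brightest probe set read 6.39 and 5.99 in Jun delta mu hearts, which were the highest and the lowest arrays, and 6.24 and 6.22 in Junf/f hearts. The other probe set was below the array median throughout, at 5.17 and 5.10 in Jun delta mu hearts and 5.06 and 5.21 in Junf/f hearts. The neutrophil collagenase *Mmp8* read 4.72 and 4.64 in Jun delta mu hearts against 4.29 and 4.52 in Junf/f hearts, a difference of 0.28 (SE 0.11, limma adjusted p = 0.896). Its genotypes did not overlap, with Junf/f replicate 1 the lowest. The 5 measured neutrophil markers summed on the linear scale to 1443 and 406 in Jun delta mu hearts and to 529 and 1005 in Junf/f hearts. The sum is set mostly by *S100a8* and *S100a9*, while *Ngp*, *Camp* and *Ltf* had other orders. Like the brightest *Mmp9* probe set, *S100a8* and *S100a9* were highest on Jun delta mu replicate 1 and lowest on Jun delta mu replicate 2. Between the Junf/f hearts *S100a8* differed (7.33 and 8.43), while that *Mmp9* probe set was almost equal. The other *Mmp9* probe set was highest on Junf/f replicate 2 and lowest on Junf/f replicate 1. The part of the neutrophil markers in the *Mmp8* and *Mmp9* values was not tested. *Mmp13*, the main interstitial collagenase of rodents, was the dimmest member and read 3.38 and 3.26 in Jun delta mu hearts and 3.40 and 3.26 in Junf/f hearts. Its values differed by -0.01 (SE 0.10), with an interval from -0.27 to 0.24.

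Among the stromelysins and their relatives, *Mmp3* was lower on average, but its genotypes overlapped. *Mmp3*, or stromelysin, cuts proteoglycans and can activate other precursors. It read 7.15 and 7.55 in Jun delta mu hearts against 7.88 and 7.51 in Junf/f hearts, a difference of -0.34 (SE 0.18, limma adjusted p = 0.896). Jun delta mu replicate 1 was the lowest array and Junf/f replicate 1 the highest, while both replicates 2 nearly coincided. The difference was -0.15 without Jun delta mu replicate 1 and -0.16 without Junf/f replicate 1, and -0.54 and -0.53 without the other arrays of the same genotypes.

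Of the other genes of the run on chromosome 9 with an AP-1 element, *Mmp13* was at -0.01, as given above, and *Mmp10*, *Mmp12* and *Mmp7* were above 0, with intervals that overlap that of *Mmp3*. *Mmp10*, another stromelysin, read 5.65 and 5.66 in Jun delta mu hearts and 5.63 and 5.34 in Junf/f hearts, a difference of 0.17 (SE 0.12). Macrophage elastase, *Mmp12*, was at 4.23 and 4.13 in Jun delta mu hearts and at 3.93 and 4.08 in Junf/f hearts, a difference of 0.17 (SE 0.10). Matrilysin, *Mmp7*, differed by 0.07 (SE 0.09), with 5.88 and 5.87 in Jun delta mu hearts and 5.76 and 5.84 in Junf/f hearts. In these 3 genes both Jun delta mu arrays were above both Junf/f arrays, which was so for 17.3% of all probe sets. The 3 genes were added after their values were seen, so this count is no result about them. None passed the cut-off in limma, and *Mmp12* was below the array median. *Mmp11*, the stromelysin known from stromal cells, differed by -0.00 (SE 0.10). Of the 7 members with AP-1 letters, *Mmp7*, *Mmp10* and *Mmp12* were thus above 0 and *Mmp3*, *Mmp13*, *Plaur* and *Adam19* below 0 by brightest probe set, and none passed.

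The membrane-type enzyme *Mmp14*, which activates the *Mmp2* precursor at the cell surface, gave no common direction across its 3 probe sets. The brightest read 7.95 and 7.93 in Jun delta mu hearts and 8.10 and 7.70 in Junf/f hearts, a difference of 0.04 (SE 0.15). Another, 1416572_at, read 7.01 and 7.16 in Jun delta mu hearts and 7.47 and 6.95 in Junf/f hearts, a difference of -0.12 (SE 0.18). The dimmest, 1440920_at, read 6.33 and 6.14 in Jun delta mu hearts and 5.74 and 6.26 in Junf/f hearts, a difference of 0.23 (SE 0.19). In each case the Junf/f arrays lay on either side of at least 1 Jun delta mu array, and for each of the 3 leaving out 1 of the Junf/f arrays turned the sign. *Mmp17*, anchored to the membrane by a lipid, had the largest difference of its family by brightest probe set, with 5.56 and 5.61 in Jun delta mu hearts and 5.36 and 5.59 in Junf/f hearts, or 0.11 (SE 0.11). *Mmp24* differed by 0.00 to 0.21 over 3 probe sets and *Mmp16* by -0.07 to 0.20 over 4, and only the brightest of *Mmp24* was above the array median.

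*Mmp19*, an enzyme of basement membrane turnover, had the only member probe set past the cut-off, and its other probe set differed the other way. Probe set 1421977_at read 3.45 and 3.60 in Jun delta mu hearts against 4.06 and 3.97 in Junf/f hearts, a difference of -0.49 (SE 0.10, interval -0.74 to -0.23, limma adjusted p = 0.896). Both Jun delta mu arrays were lower, and the difference stayed between -0.56 and -0.41 when any array was left out. The signal was below the array median on all arrays. The brighter probe set, 1421976_at, read 4.92 and 5.11 in Jun delta mu hearts and 4.83 and 4.97 in Junf/f hearts, a difference of 0.12 (SE 0.11). *Mmp23*, a membrane enzyme without a hemopexin domain, read 6.89 and 6.90 in Jun delta mu hearts and 6.59 and 6.96 in Junf/f hearts by its brightest probe set. This was a difference of 0.12 (SE 0.14), with the low value on Junf/f replicate 1. Its other probe set, 1417281_a_at, read 5.97 and 5.94 in Jun delta mu hearts and 5.99 and 5.73 in Junf/f hearts. There the difference was 0.10 (SE 0.12) and the low value was on Junf/f replicate 2.

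**Figure D4:**
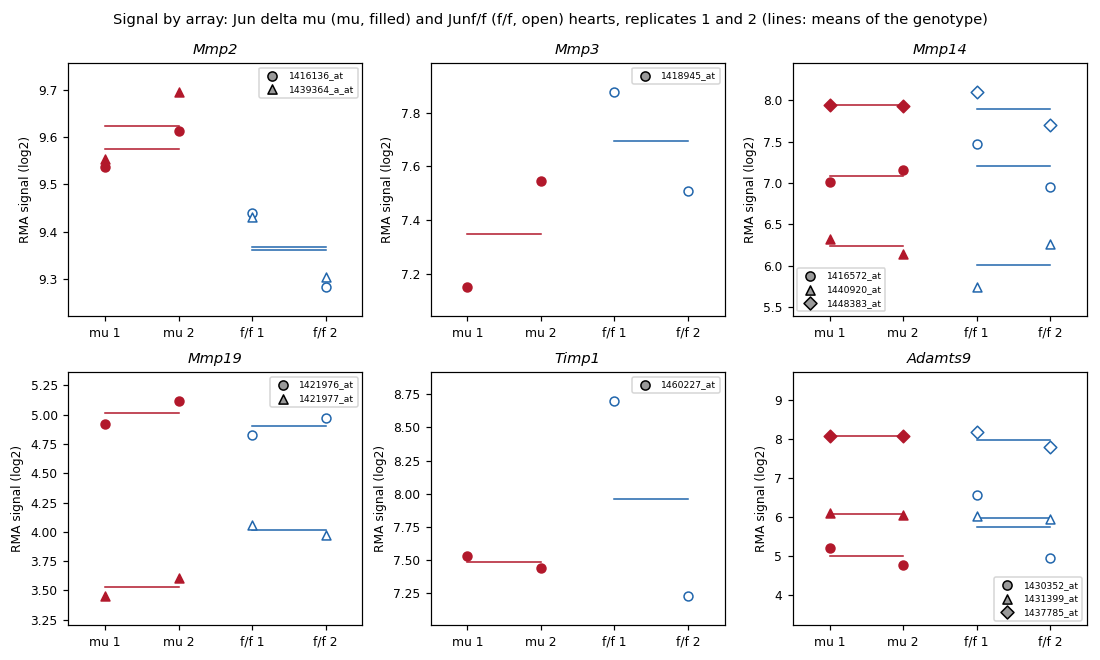
RMA signal on the log2 scale (y axis, a separate range per gene) on each array for all probe sets of 6 genes, filled red for Jun delta mu and open blue for Junf/f hearts, with lines at the mean of each genotype and a symbol per probe set. Both probe sets of *Mmp2* separate the genotypes, the means of the *Mmp19* probe sets differ in opposite directions, and in *Timp1* and in *Adamts9* 1430352_at Junf/f replicate 1 stands above the other arrays at 8.70 and 6.56.

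Of the inhibitors, *Timp1* had the largest difference, which rested on 1 array. *Timp1*, an inducible inhibitor of most MMPs, read 7.53 and 7.44 in Jun delta mu hearts against 8.70 and 7.23 in Junf/f hearts, a difference of -0.48 (SE 0.45, limma adjusted p = 0.923). Junf/f replicate 1 was the highest array and Junf/f replicate 2 the lowest, with both Jun delta mu arrays between them. Without Junf/f replicate 1 the difference was 0.26, and without Junf/f replicate 2 it was -1.22. The 4 markers of epicardium and mesothelium were all below 0 and summed to 424 and 490 in Jun delta mu hearts and to 572 and 564 in Junf/f hearts. *Krt19* (7.40), *Msln* and *Wt1* were highest on Junf/f replicate 1. *Upk3b* was highest on Junf/f replicate 2, at 8.43 against 7.95 on Junf/f replicate 1 by its brightest probe set. Their part in the *Timp1* value was not tested.

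*Timp3*, which binds to the matrix and also inhibits *Adam17* and aggrecan-cutting ADAMTS enzymes, was above 0 with all 4 probe sets, by 0.13 to 0.33. The brightest read 9.85 and 9.92 in Jun delta mu hearts and 9.39 and 9.86 in Junf/f hearts, a difference of 0.26 (SE 0.17, limma adjusted p = 0.896). Probe set 1449335_at read 9.81 and 9.94 in Jun delta mu hearts and 9.31 and 9.78 in Junf/f hearts, a difference of 0.33 (SE 0.17), and in it alone the genotypes did not overlap. Junf/f replicate 1 was the lowest array for each of the 4 probe sets, and without it the differences were between -0.11 and 0.10. The 4 probe sets read the same RNA and are no independent evidence.

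*Timp2*, which inhibits MMPs and takes part with *Mmp14* in activating the *Mmp2* precursor, differed by less than its spread between arrays. Its brightest probe set read 9.99 and 10.27 in Jun delta mu hearts and 10.24 and 10.08 in Junf/f hearts, a difference of -0.03 (SE 0.13), and the 6 probe sets ran from -0.23 to 0.07. *Timp4*, the TIMP best known from heart muscle, read 9.71 and 9.67 in Jun delta mu hearts and 9.92 and 9.61 in Junf/f hearts, a difference of -0.07 (SE 0.13). Its other probe set differed by -0.09 (SE 0.09). The membrane-anchored inhibitor *Reck* read 7.56 and 7.69 in Jun delta mu hearts and 7.63 and 7.63 in Junf/f hearts, a difference of -0.00 (SE 0.09). Of the 5 inhibitors 1 was above 0 and 4 were below, and 2 were above 0 after quantile or cyclic loess normalization.

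Of the 9 ADAMTS genes 5 were above 0 and 4 below, between -0.34 and 0.13 by brightest probe set. *Adamts5*, an aggrecan-cutting enzyme and the brightest of the family, read 8.67 and 8.78 in Jun delta mu hearts and 8.75 and 8.76 in Junf/f hearts, a difference of -0.03 (SE 0.09). *Adamts15* had the largest difference, -0.34 (SE 0.16, limma adjusted p = 0.896), with 6.50 and 6.27 in Jun delta mu hearts against 6.93 and 6.52 in Junf/f hearts. Its genotypes did not overlap, but Jun delta mu replicate 1 and Junf/f replicate 2 were almost equal. *Adamts1*, which cuts versican and aggrecan, read 8.34 and 8.30 in Jun delta mu hearts against 8.46 and 8.61 in Junf/f hearts, a difference of -0.22 (SE 0.10, limma adjusted p = 0.896). For it too both Jun delta mu arrays were lower, and the difference was between -0.29 and -0.14 when any array was left out.

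*Adamts9*, a versican-cutting enzyme, is described because of a probe set beyond 1.3-fold, a choice made after its values were seen. Probe set 1430352_at read 5.22 and 4.77 in Jun delta mu hearts against 6.56 and 4.95 in Junf/f hearts, a difference of -0.76 (SE 0.51, limma adjusted p = 0.898). As for *Timp1*, Junf/f replicate 1 alone was high, and without it the difference was 0.05. The brightest probe set read 8.09 and 8.08 in Jun delta mu hearts and 8.18 and 7.79 in Junf/f hearts, a difference of 0.10 (SE 0.15), and the remaining probe set differed by 0.08 (SE 0.09). *Adamts4*, *Adamts7*, *Adamts8*, *Adamts10* and *Adamts12* differed by -0.12, 0.07, 0.13, 0.09 and 0.10 by brightest probe set, in that order. Only for *Adamts8* and *Adamts12* were both Jun delta mu arrays above both Junf/f arrays.

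The ADAM enzymes lay between -0.10 and 0.09 by brightest probe set. *Adam10*, which sheds Notch receptors among many others, was the brightest and read 9.59 and 9.58 in Jun delta mu hearts and 9.79 and 9.54 in Junf/f hearts, a difference of -0.08 (SE 0.11). *Adam17*, which releases tumour necrosis factor, had the largest difference, -0.10 (SE 0.11), with 9.06 and 8.84 in Jun delta mu hearts and 9.0 and 9.10 in Junf/f hearts. In both genes the genotypes overlapped. *Adam19*, known from the development of heart valves, read 8.49 and 8.59 in Jun delta mu hearts and 8.87 and 8.39 in Junf/f hearts, a difference of -0.09 (SE 0.17). *Adam15* differed by 0.09 (SE 0.09) and *Adam12* by 0.08 (SE 0.09).

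Dimmer probe sets of *Adam10* and *Adam12* had intervals above 0 but stayed within 1.3-fold, and are given for that reason. *Adam12* 1421171_at read 4.37 and 4.46 in Jun delta mu hearts against 3.95 and 4.21 in Junf/f hearts, a difference of 0.33 (SE 0.12, limma adjusted p = 0.896). *Adam10* 1460083_at read 5.75 and 5.80 in Jun delta mu hearts against 5.39 and 5.60 in Junf/f hearts, a difference of 0.28 (SE 0.11, limma adjusted p = 0.896). The genotypes did not overlap in either, and Junf/f replicate 1 was the lowest array in both. The other 3 probe sets of *Adam10* were between -0.11 and -0.04.

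In the plasminogen activator system, tissue-type activator was bright and urokinase dim, and neither differed beyond 1.3-fold. *Plat*, the tissue-type activator, known from endothelium, read 8.30 and 8.31 in Jun delta mu hearts against 8.23 and 8.12 in Junf/f hearts, a difference of 0.13 (SE 0.09, limma adjusted p = 0.898). Its dimmer probe set read 5.22 and 5.12 in Jun delta mu hearts against 4.87 and 5.06 in Junf/f hearts, a difference of 0.20 (SE 0.11). The genotypes were separate in both. *Plau*, or urokinase, read 3.99 and 3.84 in Jun delta mu hearts and 3.77 and 3.87 in Junf/f hearts, a difference of 0.10 (SE 0.10), and its other probe set differed by 0.04 (SE 0.09). *Plaur*, the receptor that holds urokinase at the cell surface, read 5.56 and 5.62 in Jun delta mu hearts against 5.72 and 5.63 in Junf/f hearts, a difference of -0.08 (SE 0.09), with the replicates 2 almost equal.

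Probe sets of the same gene did not always give the same sign. Among the 22 genes with several probe sets, 8 had some above and some below 0. The sign of the difference also depended on single hearts. When each array was left out in turn, the sign held for 19 of 37 genes by brightest probe set and for 37 of 77 probe sets. Without Junf/f replicate 1 the sign of 22 probe sets changed, and without Junf/f replicate 2, Jun delta mu replicate 1 and Jun delta mu replicate 2 that of 9, 9 and 10. These counts of signs were not made over all probe sets, so they are no trait of the members. Without Junf/f replicate 2, 13 member probe sets and 4 genes by brightest probe set (*Mmp8*, *Timp1*, *Timp3* and *Adamts15*) passed the cut-off, but so did 7.66% of all probe sets. Junf/f replicate 1, the array that stood apart, is then the only array of its genotype.

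**Figure D5:**
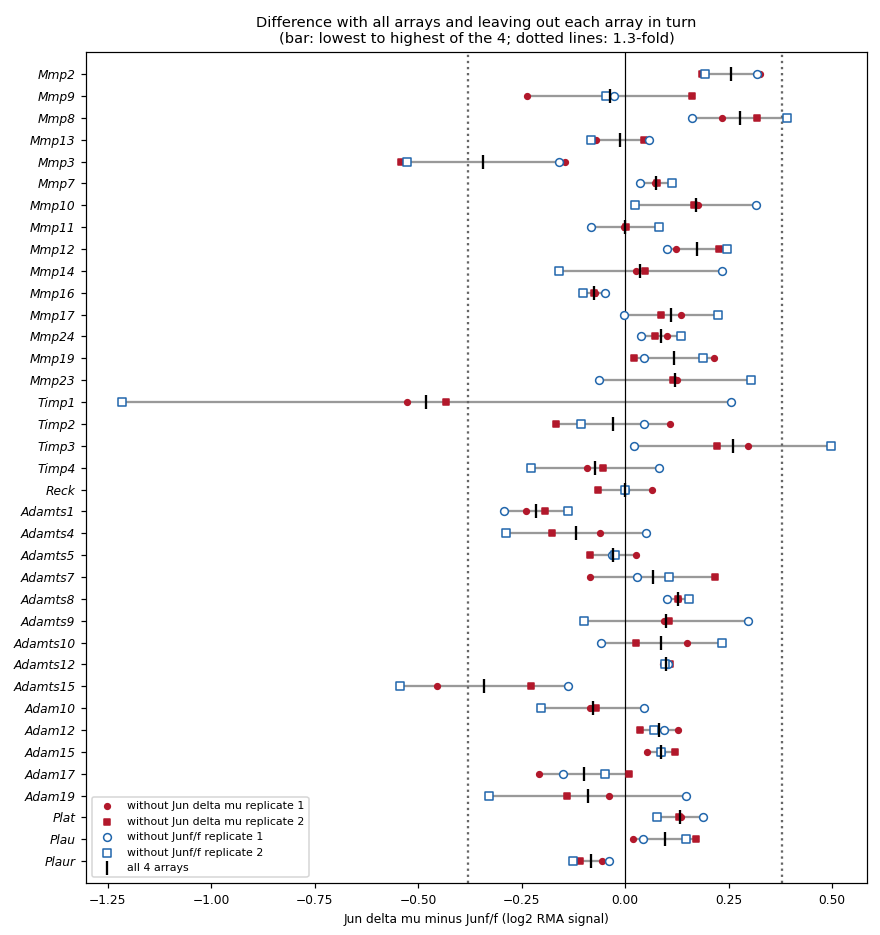
Difference in log2 RMA signal, Jun delta mu minus Junf/f, by brightest probe set with all 4 arrays (black ticks) and without each array in turn (filled red, a Jun delta mu array left out; open blue, a Junf/f array left out), with grey bars over the range of the 4 and dotted lines at 1.3-fold. *Timp1* spans -1.22 to 0.26, and bars of 18 genes reach both sides of 0.

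Other genes of the same protease systems were taken from a further list. Of its 53 listed genes 43 were measured, and 27 were above 0 (52.2% of all genes were), with a median difference of 0.04. By brightest probe set 2 of the 43 passed the cut-off, against 1.45% of all genes. *Mep1a*, a meprin metalloproteinase of kidney and gut, was higher, with 4.74 and 4.79 in Jun delta mu hearts against 4.39 and 4.23 in Junf/f hearts, a difference of 0.46 (SE 0.10, limma adjusted p = 0.896), and a signal below the array median. *Serpinb2*, an inhibitor of urokinase, was lower, with 3.27 and 3.43 in Jun delta mu hearts against 4.42 and 3.70 in Junf/f hearts, a difference of -0.71 (SE 0.24, limma adjusted p = 0.896). *Serpinb2* did not pass with the methods' t-test, and its difference was -0.35 without Junf/f replicate 1. Its signal was also below the array median on every array. Genotypes were separate for both genes.

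A further pair of genes passed by a probe set other than the brightest. *Cd44*, a hyaluronan receptor that can hold *Mmp9* at the cell surface, was lower with 1434376_at, which read 7.00 and 6.98 in Jun delta mu hearts against 7.54 and 7.39 in Junf/f hearts, a difference of -0.47 (SE 0.10, limma adjusted p = 0.896). Another, 1452483_a_at, also passed as lower, with 4.73 and 4.67 in Jun delta mu hearts against 5.40 and 4.95 in Junf/f hearts, a difference of -0.47 (SE 0.16, limma adjusted p = 0.896). Its signal was below the array median on every array. The brightest probe set of *Cd44*, at -0.37 (SE 0.13), just missed 1.3-fold with separate genotypes, and the dimmest, 1443265_at, differed by -0.05 (SE 0.12). *Bmp1*, a procollagen proteinase, was higher with 1427457_a_at, at 5.26 and 5.01 in Jun delta mu hearts against 4.70 and 4.70 in Junf/f hearts, a difference of 0.43 (SE 0.11, limma adjusted p = 0.896). That probe set too was below the array median on every array, and the brightest probe set of *Bmp1* differed by 0.06 (SE 0.10). By list, 2 of 3 other MMPs, 7 of 11 other ADAMTS and ADAM genes, 5 of 10 genes of the plasmin system, 9 of 12 astacins and other matrix proteases and 4 of 7 activators and cofactors were above 0.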

How the data were processed

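Microarray data of hearts from 2 Jun delta mu and 2 Junf/f mice were analysed. The deposited values are log2 signals that the authors computed with RMA, which corrects background and normalizes between arrays. The submitters' processing notes name RMA and oligo, with no version. Of 45101 probe sets per array, the 64 AFFX controls were left out and 45037 tested without a filter. In the platform annotation 34945 probe sets have 1 gene name, 932 have several and 9160 have no name. With 4 arrays the fit has 2 residual degrees of freedom, the number of arrays limits the precision, and p-values measure only the spread between these samples.

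Probe sets were fitted on genotype with limma 3.58.1 (R 4.3.3; lmFit, eBayes, two-sided) and Benjamini-Hochberg adjustment over all 45037. The study's cut-off (over 1.3-fold and p below 0.05) stems from a t-test in the methods. Intervals are 95%. The brightest probe set of a gene has the highest mean signal. The procedure was tested on simulated data, where calls were required only for shifts far larger than any member difference. The simulated shifts included smaller ones, near the size of the largest member differences. How often those were called is not given here. Suffixes _a, _s and _x mark probe sets that can match several transcripts or genes. Promoters came from RefSeq (GRCm38.p6). Figures were drawn with matplotlib 3.10.9.

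Members and lists were chosen with earlier results of these data known. Values on each array are given for *Mmp2*, *Mmp3*, *Mmp9*, *Mmp13*, *Mmp14*, *Mmp19*, the Timp genes, *Plat*, *Plau*, *Plaur*, members past the cut-off, and the brightest member and largest difference of each family; *Adamts1*, *Adamts9*, *Adam19*, *Reck*, *Mmp7*, *Mmp10*, *Mmp12*, probe sets at p below 0.05 and genes named in counts were added after their values were seen. Alternatives were the t-test, a replicate block, a trended robust prior, array weights, a filter, further normalizations, specific probe sets, a gene's median and leaving out arrays.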

Additional observations from a re-analysis of the deposited data

How the results depend on the processing

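Counts past the cut-off were 1 member probe set, 0 member genes and 2 other pathway genes by brightest probe set. They were the same with a trended robust prior, array weights, quantile, median or cyclic loess normalization and specific probe sets only. In these settings 1.55% to 1.64% of all fitted probe sets passed. The methods' t-test left 1 member probe set and 1 pathway gene, and it passed 0.444% of all probe sets, against 1.53% by limma. A filter that dropped the dimmest 40% of probe sets left 0 member probe sets and 0 pathway genes, since it removes *Mmp19* 1421977_at and the pathway genes. Of the probe sets it kept, 1.71% passed. With each gene's median across its probe sets, 0 member and 3 pathway genes passed. The share over all genes was not worked out for the alternative settings, so these gene counts are no result about the genes. Leaving out arrays gave 1 to 13 member probe sets, 0 to 4 member genes and 1 to 4 pathway genes; without Junf/f replicate 2 there were 13, 4 and 4, and without Jun delta mu replicate 2 there were 2, 0 and 1. The lone array of a genotype is then assumed to vary like the other genotype.

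Deviations of same-numbered arrays were almost uncorrelated over all probe sets (0.03). This value cannot show whether same-numbered hearts were littermates or handled together, and the labels give replicate numbers only. With a replicate block 1 member probe set, 0 member genes and 1 pathway gene passed, and 1.52% of all probe sets did. Quantile and cyclic loess normalization each changed the sign of 3 of the 77 member differences, and median centring changed 0. RMA values carry no detection calls, so members and other genes below the array median may be near background.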
